A study of Mus musculus with 2 samples.

Results

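The genes described here make, fix and break down the collagen network of the heart wall, and they number 10 of the 31920 gene rows in the deposited expression table. They were taken by symbol: the lysyl oxidase genes Lox, Loxl1 and Loxl2, the lysyl hydroxylase genes Plod1 and Plod2, the metalloproteinase genes Mmp2 and Mmp14, and the inhibitor genes Timp2, Timp3 and Timp4. All 10 had at least 5 RPM (reads per 1000000 reads assigned to genes) in the higher library, a minimum that 10209 rows passed and that defines a measured gene. The study concerns the heart disease caused by loss of LAMP2, a lysosomal membrane protein needed for autophagy. The Lamp2 knockout group was 1 male mouse, 10 weeks old, and the wildtype group was 1 male of the same age. Both were of strain 129-SvEv, and no treatment is given for either. From each, the polyadenylated RNA of its left ventricle was sequenced. The labels do not describe the allele.

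Collagen is modified inside the cell and again outside it. Lysyl hydroxylases add hydroxyl groups to lysines of the new chains in the endoplasmic reticulum, and lysyl oxidases later turn lysines and hydroxylysines of secreted collagen and elastin into aldehydes that form covalent crosslinks. Matrix metalloproteinases cut the finished network, and tissue inhibitors of metalloproteinases (TIMPs) bind and block them. In the heart, the balance of these activities is known to bear on wall stiffness and on scarring, and fibroblasts are a main source of several of the enzymes.

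Reads assigned to genes numbered 8773820 for the knockout-labelled library and 8410593 for the wildtype library. With 1 library per group there is no spread between animals, no difference has a replicate check and no test of the genotypes was made. Intervals given with ratios and shares are exact 95% intervals of the read counts and cover counting error only, and reads are not independent molecules. A gene was called 2-fold apart, higher or lower, where the log2 of (knockout-labelled RPM + 1) over (wildtype RPM + 1) reached 1 in size. The targeted gene, Lamp2, had 986 reads in the knockout-labelled library and 990 in the wildtype library, so its count does not check the genotype label. Over all measured genes this log2 ratio had a median of 0.11, and 61.2% lay above 0. Each of 3 rescalings that were tried divides all RPM ratios by the same factor, on the log2 scale 0.12 (median ratio), 0.12 (trimmed mean of log ratios) or 0.20 (a reduced total that leaves out mitochondrial transcripts and the 10 genes with the most reads). Log2 ratios of low genes move less than this because of the added 1 RPM. Ventricular muscle genes such as Myh6 and Tnnt2 were abundant in both libraries. The 15 cardiomyocyte markers summed to 79425 RPM in the knockout-labelled library and 79416 RPM in the wildtype library. Singly, 7 lay above a log2 ratio of 0 and 8 below, from −0.75 to 0.89, and none was 2-fold apart. Their median log2 ratio was −0.07, and −0.19 to −0.27 under the rescalings.

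In the knockout-labelled library Lox and Timp3 were higher by at least 2-fold, and none of the 10 genes was lower by that much. Lox encodes the founding lysyl oxidase and Timp3 the inhibitor that stays bound to the matrix. Mmp14, which encodes a membrane-anchored collagenase, had a ratio of 1.99 and lay just under the rule. Loxl1 and Loxl2 had ratios of 0.588 and 0.577, and the other 5 genes lay between 0.735 and 1.34. These are 2 of 10 genes past the rule, against 5.72% of all measured genes, of which 3.35% were higher and 2.37% lower (342 and 242 genes). On the rescaled values these counts were 244 and 308 with the median ratio, 243 and 310 with the trimmed mean, and 209 and 375 with the reduced total. Lox and Timp3 were the members called higher on each of these scales, and no member was called lower. The median log2 ratio of the 10 genes was 0.20, against 0.11 over all measured genes, and 6 of the 10 lay above 0.

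**Figure D1:**
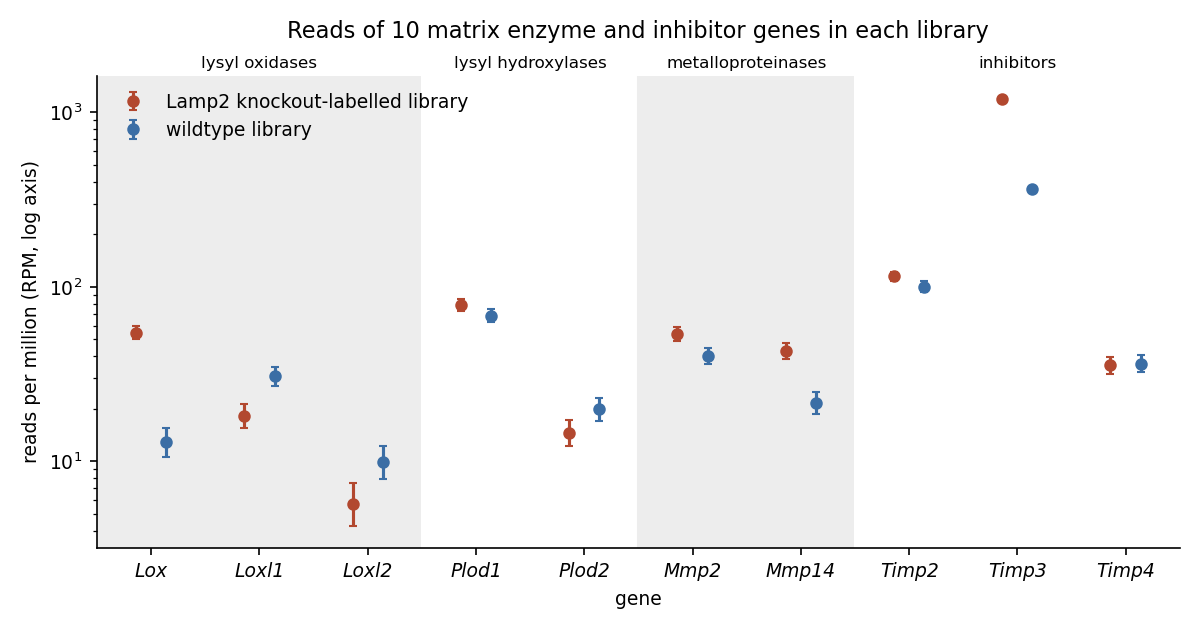
RPM (log axis) of each of the 10 genes, with the Lamp2 knockout-labelled library left of the wildtype library; bars are exact 95% counting intervals and n = 1 library per group. Lox stood at 54.7 against 12.8 RPM and Timp3 at 1200 against 363 RPM, while the points of Timp4 lay within each other's intervals.

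The counting interval of the RPM ratio excluded 1 for 9 of the 10 genes, all but Timp4. At these depths this holds for 51.7% of all measured genes, with 35.0% above 1 and 16.8% below 1, so it marks counting precision and not a difference between genotypes. Under each of the 3 rescalings the intervals of Plod1, Timp2 and Timp4 included 1 and those of the other 7 genes did not.

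**Figure D2:**
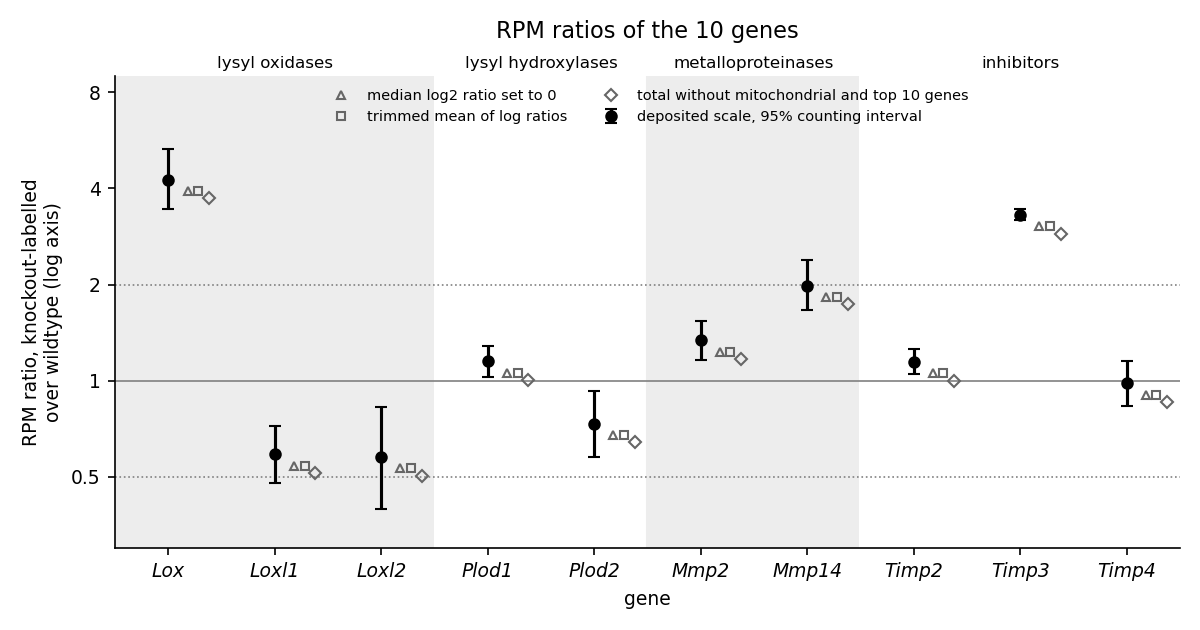
RPM ratio of the knockout-labelled over the wildtype library for each gene (log axis; filled points with exact 95% counting intervals) and the same ratio under 3 rescalings (open symbols). Dotted lines mark ratios of 2 and 0.5. Lox and Timp3 stayed above 2 under every rescaling shown, and Plod1 and Timp2 came down to ratios of 1.0.

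Lox (chromosome 18, 52517238 to 52529867, minus strand, mm10 build), whose enzyme crosslinks collagen and elastin outside the cell, had 480 reads in the knockout-labelled library and 108 in the wildtype library. These are 54.7 and 12.8 RPM, a ratio of 4.26 (3.45 to 5.30). Its log2 ratio of 2.01 ranked 39 from the highest of the 10209 measured genes. The ratio was 3.93, 3.92 and 3.72 under the 3 rescalings. A cDNA-clone row on the opposite strand overlaps Lox and had 33 reads in the knockout-labelled library and 9 in the wildtype library. Whether reads were counted by strand is not stated, and without it reads in the overlap cannot be told apart. With the clone's reads added to those of Lox the ratio was 4.2.

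Loxl1 (chromosome 9, 58287723 to 58313212, minus strand), whose product is known for elastic fibre upkeep, went the other way. It had 159 reads in the knockout-labelled library and 259 in the wildtype library, or 18.1 and 30.8 RPM, a ratio of 0.588 (0.480 to 0.720). Loxl2 (chromosome 14, 69390793 to 69695834, plus strand), which acts on basement membrane collagen IV and is known from mouse studies of cardiac fibrosis, had 50 reads in the knockout-labelled library and 83 in the wildtype library. These are 5.70 and 9.87 RPM, a ratio of 0.577 (0.398 to 0.830), the widest relative interval of the 10 genes because it rests on the fewest reads. Both ratios lay above 0.5 on the deposited scale and under each rescaling, with lowest values of 0.514 for Loxl1 and 0.504 for Loxl2. The deposited Loxl2 row spans 305042 bases, against 86767 bases for the gene in the GENCODE M21 annotation. An opposite-strand row, Slc25a37, overlaps that row with 47 reads in the knockout-labelled library and 55 in the wildtype library. With these reads added to those of Loxl2 the ratio was 0.674 (0.514 to 0.880). A same-strand row, Entpd4, also overlaps it and had 0 reads in both libraries. Whether reads of other genes in this span were counted for Loxl2 is not stated.

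The lysyl oxidase family therefore differed in make-up more than in sum. Its 5 genes together, Loxl3 and Loxl4 included, had 778 reads in the knockout-labelled library and 517 in the wildtype library, a ratio of RPM of 1.44 (1.29 to 1.62). Lox made up 61.7% of these reads in the knockout-labelled library (58.2 to 65.1) and 20.9% in the wildtype library (17.5 to 24.7). Loxl1 made up 20.4% in the knockout-labelled library (17.7 to 23.4) and 50.1% in the wildtype library (45.7 to 54.5). The order of the leading genes by reads was thus Lox before Loxl1 in the knockout-labelled library and Loxl1 before Lox in the wildtype library. There were 3.02 Lox reads per Loxl1 read in the knockout-labelled library and 0.417 in the wildtype library. The ratio of these ratios, which does not depend on how the libraries are scaled, was 7.22 (5.38 to 9.75). Loxl1 and Loxl2 kept nearly the same proportion, at 3.18 Loxl1 reads per Loxl2 read in the knockout-labelled library and 3.12 in the wildtype library. The ratio of those was 1.02 (0.670 to 1.56). Loxl3 had a ratio of 1.03 (0.695 to 1.54), and Loxl4, with 33 reads in the knockout-labelled library and 15 in the wildtype library, was below the minimum of 5 RPM.

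**Figure D3:**
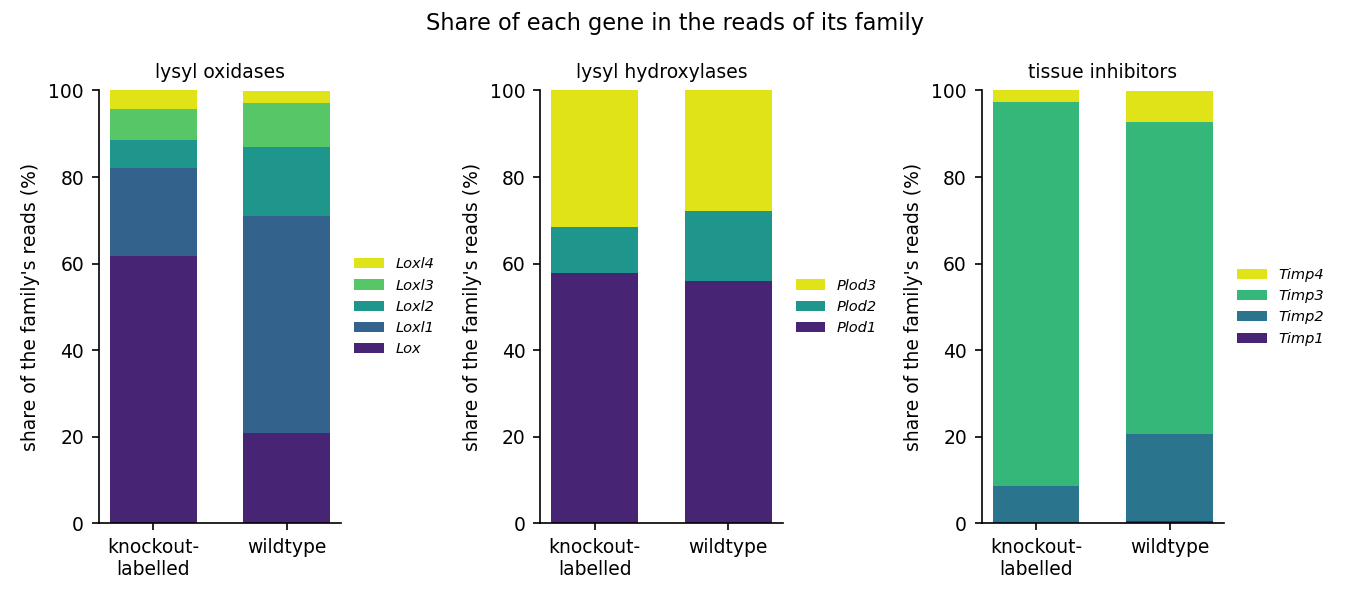
Share of each gene in the reads of its family (percent), for the lysyl oxidases, the lysyl hydroxylases and the tissue inhibitors, with the knockout-labelled library left of the wildtype library. Lox took 61.7% against 20.9% of lysyl oxidase reads and Timp3 took 88.7% against 72.2% of inhibitor reads, while Plod1 held 57.7% against 55.9% of lysyl hydroxylase reads.

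The lysyl hydroxylase genes differed little. Plod1 (chromosome 4, 147909753 to 147936776, minus strand), whose enzyme hydroxylates lysines of the collagen helix, had 691 reads in the knockout-labelled library and 576 in the wildtype library. These are 78.8 and 68.5 RPM, a ratio of 1.15 (1.03 to 1.29) that was 1.06, 1.06 and 1.0 under the rescalings. Plod2 (chromosome 9, 92542223 to 92608427, plus strand) encodes the hydroxylase of the collagen telopeptides, which sets the hydroxylysine type of crosslink that is typical of scars. It had 128 reads in the knockout-labelled library and 167 in the wildtype library, or 14.6 and 19.9 RPM, a ratio of 0.735 (0.579 to 0.931). Plod3, the third gene of the family, had a ratio of 1.26 (1.08 to 1.48). Plod2 was thus the 1 lysyl hydroxylase gene of 3 with a ratio below 1. Its share of the family's reads was 10.7% in the knockout-labelled library (9.0 to 12.6) and 16.2% in the wildtype library (14 to 18.6). Plod2 reads per Plod1 read were 0.185 in the knockout-labelled library and 0.290 in the wildtype library, a ratio of 0.639 (0.490 to 0.831) that does not depend on scaling. An opposite-strand row, B430319G15Rik, overlaps Plod2 and had 56 reads in the knockout-labelled library and 62 in the wildtype library. With these reads added to those of Plod2 the ratio was 0.770 (0.631 to 0.939).

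Mmp14 (chromosome 14, 54431604 to 54441258, plus strand) encodes a collagenase of the cell surface that also switches on the secreted enzyme of Mmp2, with TIMP2 as the bridge between them. Mmp14 had 377 reads in the knockout-labelled library and 182 in the wildtype library, or 43.0 and 21.6 RPM. The ratio of 1.99 (1.66 to 2.38) corresponds to a log2 ratio of 0.96 with the pseudocount, rank 398 from the highest. The ratio was 1.83, 1.83 and 1.73 under the rescalings, so whether Mmp14 reaches 2-fold was not settled by counting error. Mmp2 (chromosome 8, 92827328 to 92853420, plus strand), which encodes the gelatinase that degrades unwound collagen and basement membrane collagen, had 473 reads in the knockout-labelled library and 339 in the wildtype library. These are 53.9 and 40.3 RPM, a ratio of 1.34 (1.16 to 1.54), and 1.17 under the rescaling to the reduced total. Mmp14 reads per Mmp2 read were 0.797 in the knockout-labelled library and 0.537 in the wildtype library, a ratio of 1.48 (1.18 to 1.87). No other row of the deposited table overlaps Mmp2 or Mmp14.

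Timp3 (chromosome 10, 86300412 to 86349505, plus strand) encodes the TIMP that is held in the matrix and that also blocks ADAM17 and several ADAMTS proteinases. It had 10531 reads in the knockout-labelled library and 3055 in the wildtype library, by far the most of the 10 genes. These are 1200 and 363 RPM, a ratio of 3.30 (3.17 to 3.44), and its log2 ratio of 1.72 ranked 73 from the highest. The ratio was 3.05, 3.04 and 2.88 under the rescalings. Timp3 lies inside Syn3, a gene on the opposite strand that encodes a synaptic vesicle protein of neurons, and 1733 of its 8144 annotated exon bases are also exon bases of Syn3. The Syn3 row had 2830 reads in the knockout-labelled library and 1008 in the wildtype library, a ratio of 2.69 (2.50 to 2.89). Without stated use of strand, reads of the pair cannot be told apart where exons overlap. The reads of both rows together gave a ratio of 3.15 (3.04 to 3.27).

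Timp2 and Timp4 did not follow Timp3. Timp2 (chromosome 11, 118301061 to 118355411, minus strand), whose product inhibits MMP2 and at the cell surface helps to activate it, had 1010 reads in the knockout-labelled library and 844 in the wildtype library. These are 115 and 100 RPM, a ratio of 1.15 (1.05 to 1.26) that was 1.06, 1.06 and 1.0 under the rescalings. Timp4 (chromosome 6, 115245616 to 115251849, minus strand), the TIMP known for its expression in the heart, had 312 reads in the knockout-labelled library and 305 in the wildtype library. These are 35.6 and 36.3 RPM, a ratio of 0.981 (0.835 to 1.15). Timp4 lies inside Syn2 on the opposite strand, whose row had 59 reads in the knockout-labelled library and 10 in the wildtype library. The 2 rows together had a ratio of 1.13 (0.969 to 1.32), which still included 1.

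The inhibitor family shifted further towards Timp3. The 4 Timp genes had 11866 reads in the knockout-labelled library and 4229 in the wildtype library, a ratio of RPM of 2.69 (2.60 to 2.79). Timp3 made up 88.7% of them in the knockout-labelled library (88.2 to 89.3) and 72.2% in the wildtype library (70.9 to 73.6). Timp3 reads per Timp2 read were 10.4 in the knockout-labelled library and 3.62 in the wildtype library, a ratio of 2.88 (2.60 to 3.19). Timp3 reads per Timp4 read were 33.8 in the knockout-labelled library and 10.0 in the wildtype library, a ratio of 3.37 (2.85 to 3.98). Against the proteinases the balance differed by inhibitor. Mmp14 reads per Timp3 read were 0.0358 in the knockout-labelled library and 0.0596 in the wildtype library, a ratio of 0.601 (0.50 to 0.725). Mmp14 reads per Timp2 read were 0.373 in the knockout-labelled library and 0.216 in the wildtype library, a ratio of 1.73 (1.41 to 2.13). Mmp2 reads per Timp3 read likewise had a ratio of 0.405 (0.349 to 0.470), while for Mmp2 reads per Timp2 read it was 1.17 (0.984 to 1.38), an interval that included 1. Relative to either proteinase there was thus more Timp3 in the knockout-labelled library, and less Timp2 relative to Mmp14 only. Timp1, the inducible member of the family, had 13 reads in the knockout-labelled library and 25 in the wildtype library, below the minimum.

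RefSeq promoter sequences of the GRCm38.p6 assembly, from 250 bases before to 50 bases after the transcription start, were at hand for 5 of the 10 genes. Those of the 3 inhibitor genes, whose ratios differ, and of Mmp14, the proteinase set against them, are shown, and the remaining entry was that of Plod1. Capitals mark the letters GGGCGG or CCGCCC, the GC box read on either strand. They also mark ACGTG or CACGT, a form of the hypoxia response element core on either strand. The other form of that core, GCGTG or CACGC, was not searched or marked, and GCGTG occurs in the Timp3 and Timp2 windows.
Timp3: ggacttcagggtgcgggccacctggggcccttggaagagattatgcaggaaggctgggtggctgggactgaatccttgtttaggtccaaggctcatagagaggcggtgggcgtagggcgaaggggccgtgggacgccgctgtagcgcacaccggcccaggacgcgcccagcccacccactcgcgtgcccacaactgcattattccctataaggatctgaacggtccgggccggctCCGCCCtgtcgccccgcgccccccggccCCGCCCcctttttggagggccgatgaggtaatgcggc
Timp2: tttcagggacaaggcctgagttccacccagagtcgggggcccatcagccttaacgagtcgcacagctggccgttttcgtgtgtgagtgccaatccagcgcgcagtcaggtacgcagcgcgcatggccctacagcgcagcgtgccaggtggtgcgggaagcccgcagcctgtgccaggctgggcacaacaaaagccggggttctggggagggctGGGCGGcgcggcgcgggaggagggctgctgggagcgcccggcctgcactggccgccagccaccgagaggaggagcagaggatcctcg
Timp4: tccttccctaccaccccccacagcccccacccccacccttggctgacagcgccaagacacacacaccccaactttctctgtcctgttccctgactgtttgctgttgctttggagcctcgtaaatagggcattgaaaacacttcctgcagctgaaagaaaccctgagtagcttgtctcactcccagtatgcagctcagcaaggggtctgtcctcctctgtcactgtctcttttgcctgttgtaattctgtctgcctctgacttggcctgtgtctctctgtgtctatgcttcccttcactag
Mmp14: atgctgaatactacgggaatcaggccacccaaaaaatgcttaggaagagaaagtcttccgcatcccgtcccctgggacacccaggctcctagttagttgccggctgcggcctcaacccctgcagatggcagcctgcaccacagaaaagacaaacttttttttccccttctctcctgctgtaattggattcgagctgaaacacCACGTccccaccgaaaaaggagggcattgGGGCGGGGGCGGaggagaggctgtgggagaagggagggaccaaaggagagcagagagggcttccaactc
The Timp3 window is chr10:86300162-86300461 on the plus strand, the Timp2 window chr11:118355362-118355661 on the minus strand, the Timp4 window chr6:115252156-115252455 on the minus strand and the Mmp14 window chr14:54431348-54431647 on the plus strand. Timp3 held 2 GC boxes, both in the reverse reading, with the first ending 10 bases before the start and the other from base 14 to base 19 after it. Timp2 held 1 GC box, from 37 to 32 bases before the start, and Timp4 held no capitalised motif. Mmp14 held 2 adjoining GC boxes, between 19 and 8 bases before the start, and 1 match to the searched hypoxia letters, from 48 to 44 bases before it. Of the 32851 promoter windows in the table, 35.7% held a GC box and 19.6% the searched hypoxia letters ACGTG or CACGT. The AP-1 letters TGANTCA, present in 7.81% of windows, and the TATA letters TATAAA or TTTATA, present in 13.6%, were in none of these 4 windows. Plod1 held 3 GC boxes and 1 TATA match. GC bases made up 67.0% of the Timp3 window, 68.7% of the Timp2 window, 53.3% of the Timp4 window and 56.0% of the Mmp14 window, against a median of 52.7% over all windows.

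Compared per length, as RPM per 1000 bases of annotated exons, Timp3 was the most abundant of the 10 transcripts in either library, at 147 in the knockout-labelled library and 44.6 in the wildtype library. Timp2 came next, at 29.5 in the knockout-labelled library and 25.8 in the wildtype library, followed by Mmp2 at 16.0 in the knockout-labelled library and 12.0 in the wildtype library. In the knockout-labelled library Plod1 (11.6) and Lox (11.5) came after these with overlapping counting intervals. They were followed by Mmp14 (7.21), Timp4 (6.03) and Loxl1 (5.50), where neighbours overlapped, and then by Plod2 (2.71) and Loxl2 (1.05). In the wildtype library the order after Mmp2 was Plod1 (10.1) and Loxl1 (9.34), where neighbours overlapped from Mmp2 on, then Timp4 (6.15). Plod2 (3.68), Mmp14 (3.63), Lox (2.69) and Loxl2 (1.83) closed that order, each overlapping its neighbour. Lox thus stood in place 5 of 10 in the knockout-labelled library and in place 9 of 10 in the wildtype library. With the longest annotated transcript as the length, Lox stood in place 6 of 10 in the knockout-labelled library and again in place 9 of 10 in the wildtype library, and Timp3 stood at 254 in the knockout-labelled library and 76.9 in the wildtype library. The order between these ends depended on the length used. With the longest transcript Plod1 stood at 19.2 in the knockout-labelled library and 16.7 in the wildtype library, ahead of Mmp2 in both. Mmp14 stood at 13.3 in the knockout-labelled library and 6.68 in the wildtype library, ahead of Lox in both. Timp3 and Timp2 at the top and Loxl2 at the bottom kept their places. The place of Loxl2 rests on the length of the annotated gene, although its deposited row spans more. Deposited rows of Mmp14, Timp4 and Lox span less than the annotated genes, at 9655 against 13753, 6234 against 10314 and 12630 against 13801 bases. Annotated exons outside the row count towards the length, so the per-length values and places of these 3 genes may be too low.

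**Figure D4:**
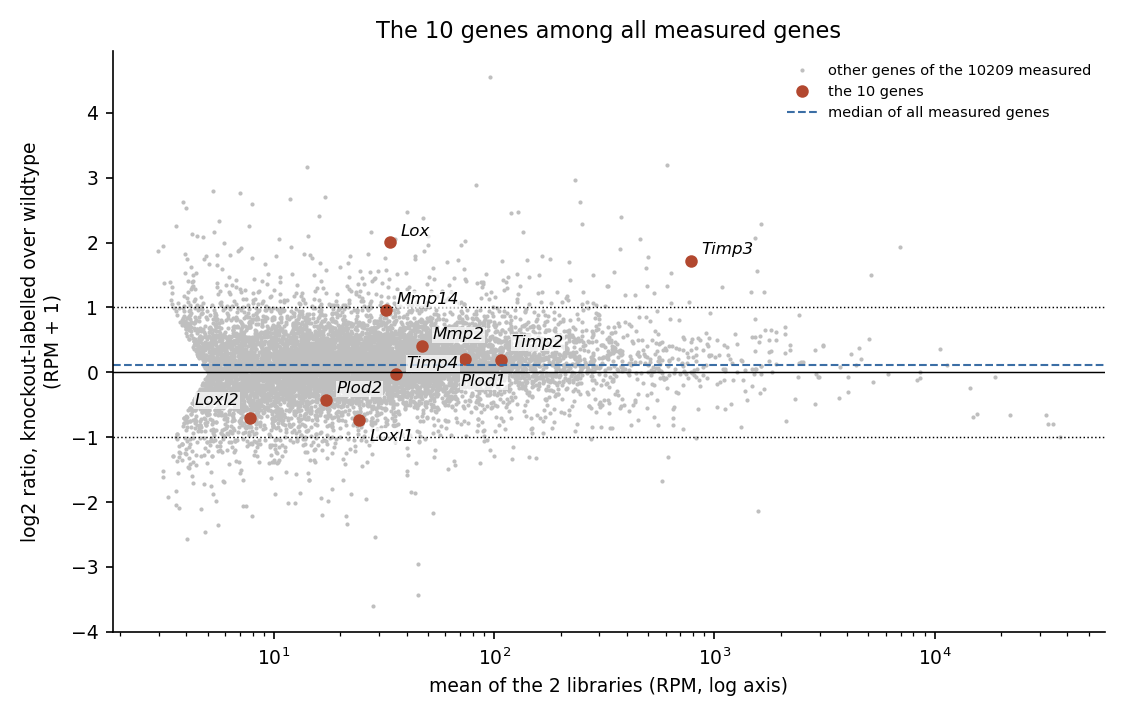
Log2 ratio of the knockout-labelled over the wildtype library (RPM + 1) against the mean RPM of the libraries (log axis) for the 10209 measured genes (grey) and the 10 genes described here (red). Lox at 2.01 and Timp3 at 1.72 lie above the dotted line of a 2-fold difference, Mmp14 lies just under it at 0.96, and Loxl1 and Loxl2 lie at −0.73 and −0.70.

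The fibrillar collagen genes Col1a1 and Col3a1, whose products Lox crosslinks, were lower in the knockout-labelled library, while the basement membrane collagen genes Col4a1 and Col4a2 were not. Of 29 measured collagens, elastic fibre genes and matrix proteoglycans, 0 were at least 2-fold higher, 6 were at least 2-fold lower and 23 passed neither way. The shares over all measured genes were 3.35% higher and 2.37% lower. Under each rescaling 7 of the 29 were lower, with Col6a3 added. The median log2 ratio of the 29 was −0.40. The summed RPM of all 33 genes in the list, measured or not, was nonetheless alike, at 2035 in the knockout-labelled library and 1947 in the wildtype library. This sum includes Col4a1 and Col4a2, whose higher RPM in the knockout-labelled library offsets lower values of other genes. Col1a1, the main chain of fibrillar collagen, was at 6.50 RPM in the knockout-labelled library and 28.5 RPM in the wildtype library. Col3a1, its fibrillar partner, was at 6.38 RPM in the knockout-labelled library and 36.4 RPM in the wildtype library. There were 8.42 Lox reads per Col1a1 read in the knockout-labelled library and 0.450 in the wildtype library, a ratio of 18.6 (12.9 to 27.2). For Col3a1 the values were 8.57 Lox reads per read in the knockout-labelled library and 0.353 in the wildtype library. Reads of Lox thus outnumbered those of Col1a1 and Col3a1 in the knockout-labelled library and not in the wildtype library. These reads are not corrected for length, so they do not give numbers of transcripts. Col1a2, the partner chain of type I collagen, differed less, with a ratio of 0.724 (0.623 to 0.839), and Eln, which encodes elastin, had a ratio of 0.854 (0.728 to 1.0). Lox reads per Eln read had a ratio of 4.98 between the libraries (3.82 to 6.54), and Loxl1 reads per Eln read one of 0.690 (0.532 to 0.893). Of the collagen genes in the list, Col4a1 and Col4a2 had the most reads in either library. Col4a1 was at 430 RPM in the knockout-labelled library and 266 RPM in the wildtype library, a ratio of 1.62 (1.53 to 1.71). Col4a2 was at 408 RPM in the knockout-labelled library and 268 RPM in the wildtype library. The type IV genes Col4a4 and Col4a5 had ratios of 0.959 and 0.995, and Col4a3, below the minimum, had 0.689. For the type VI genes Col6a1, Col6a2 and Col6a3 the ratios were 0.582, 0.566 and 0.473. Lower ratios were thus not confined to fibrillar collagens, and not all type IV genes were higher. With the added 1 RPM Col6a3 did not pass the rule. Besides Col1a1 and Col3a1, those past it were Col15a1, with a ratio of 0.207, and Lum, a fibril-binding proteoglycan, with 0.192. Col5a1 and Fmod passed too and, like the type IV and VI genes, stand outside the naming rule.

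Markers of the cells that make much of this matrix were lower in part. Of 16 fibroblast markers, all of them measured, 0 were at least 2-fold higher and 5 at least 2-fold lower, and 14 lay below a log2 ratio of 0, with a median of −0.54. Their levels summed to 1360 RPM in the knockout-labelled library and 1468 RPM in the wildtype library, and none was at 0 in either. Most of this sum was Gsn and Dcn, at 614 and 393 RPM in the knockout-labelled library and 632 and 379 RPM in the wildtype library. Without Gsn the sum was 746 RPM in the knockout-labelled library and 836 RPM in the wildtype library. Of these 16 genes, 6 also stand in the list of substrates. Pdgfra, a receptor that defines cardiac fibroblasts, was at 42.9 RPM in the knockout-labelled library and 43.6 RPM in the wildtype library. Relative to Pdgfra, Lox had a ratio of 4.33 (3.34 to 5.64), Mmp2 of 1.36 (1.11 to 1.67), Plod2 of 0.748 (0.565 to 0.990), Loxl1 of 0.599 (0.466 to 0.771) and Loxl2 of 0.588 (0.394 to 0.872). Other fibroblast markers were lower, such as the transcription factor gene Tcf21 with a ratio of 0.554 and the collagen receptor gene Ddr2 with 0.634. Relative to Tcf21, Lox had a ratio of 7.67 (4.86 to 12.2), Mmp2 of 2.41 (1.58 to 3.73), Plod2 of 1.33 (0.830 to 2.14), Loxl1 of 1.06 (0.677 to 1.68) and Loxl2 of 1.04 (0.60 to 1.82). Relative to Ddr2, Lox had 6.70 (4.90 to 9.21), Mmp2 2.11 (1.61 to 2.76), Plod2 1.16 (0.831 to 1.61), Loxl1 0.928 (0.683 to 1.26) and Loxl2 0.911 (0.587 to 1.40). Lox and Mmp2 were thus higher relative to each of these 3 markers. Loxl1, Loxl2 and Plod2 were lower relative to Pdgfra and had intervals that included 1 relative to Tcf21 and Ddr2. Dpep1, another of the 16 markers, went the other way with a ratio of 1.62 (1.46 to 1.80), above the 1.34 of Mmp2. Whether Mmp2 was higher relative to a fibroblast marker thus depended on the marker. The 13 macrophage markers summed to 405 RPM in the knockout-labelled library and 228 RPM in the wildtype library. All 11 measured among them lay above a log2 ratio of 0. Of these, C1qa and C1qb were at least 2-fold higher, C1qa no longer so under each of the 3 rescalings, and Fcgr1 was at 0 in the knockout-labelled library. The 7 neutrophil markers summed to 19.3 RPM in the knockout-labelled library and 1.78 RPM in the wildtype library, with Camp at 0 in the wildtype library. Only 1 of these 7 was measured. Without it the sums were 9.23 RPM in the knockout-labelled library and 1.19 RPM in the wildtype library, so they rest on few reads. Endothelial markers summed to 1288 RPM in the knockout-labelled library and 1338 RPM in the wildtype library, and mural cell markers to 4568 RPM in the knockout-labelled library and 3812 RPM in the wildtype library. Most of the mural sum was Des, a gene that cardiomyocytes also express strongly. Without Des it was 1030 RPM in the knockout-labelled library and 1133 RPM in the wildtype library, and 9 of the 11 measured mural markers lay below a log2 ratio of 0. Of 2 measured mesothelial markers, Upk3b was lower, and the 8 in the list summed to 16.9 RPM in the knockout-labelled library and 29.1 RPM in the wildtype library. None of the 13 endothelial and 11 mural markers measured was 2-fold apart. Fewer cells of a type and less RNA per cell cannot be told apart in such bulk samples, and the part of these markers in the ratios of the 10 genes was not tested.

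**Figure D5:**
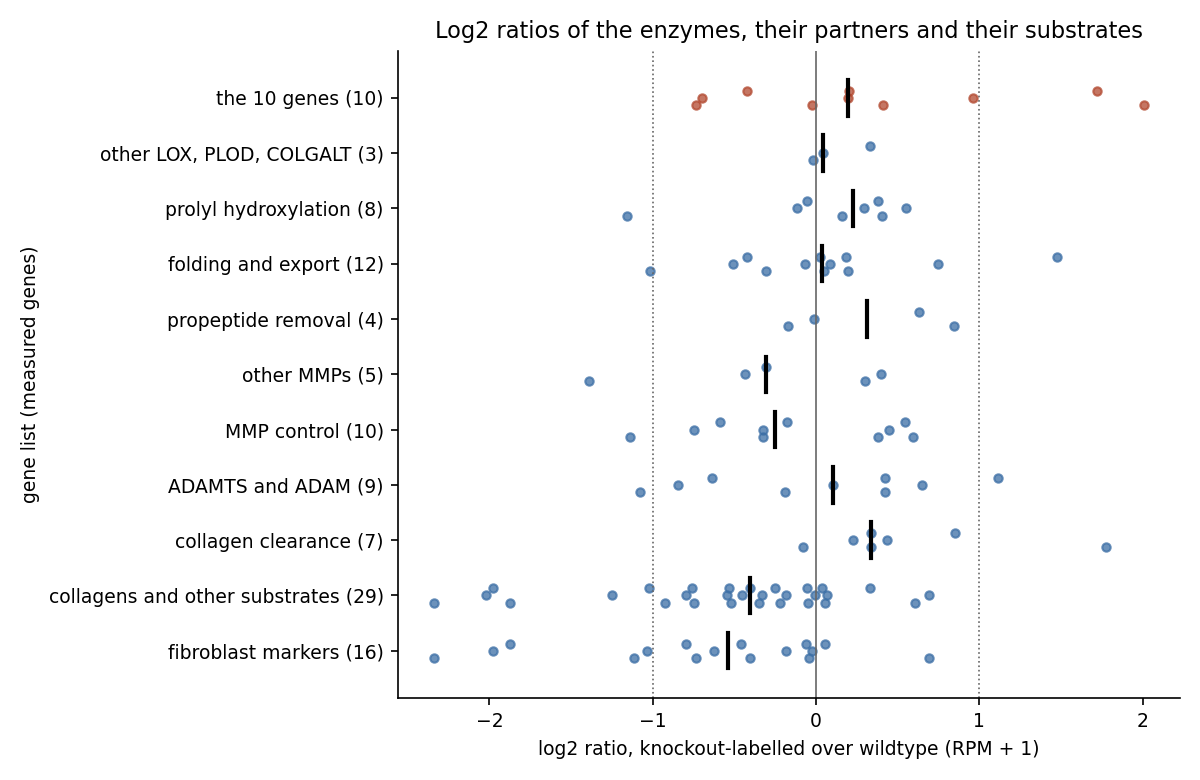
Log2 ratios (RPM + 1) of measured genes in each list, with 1 point per gene, the number measured in brackets and the list median as a black bar; the dotted lines mark 2-fold differences. The 10 genes spread from −0.73 to 2.01, while 23 of the 29 collagens and other substrates and 14 of the 16 fibroblast markers lie below 0.

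Other genes of collagen maturation and turnover were followed in 8 lists with 97 genes in the table, of which 58 were measured. Among these, 3 were at least 2-fold higher, 5 at least 2-fold lower and 50 passed neither way, and 33 lay above 0 with a median log2 ratio of 0.10. The shares past the rule were 5.17% higher and 8.62% lower, beside 3.35% and 2.37% of all measured genes, and calls were few.

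Upstream of the crosslinking step, 0 of 8 measured prolyl hydroxylation genes were at least 2-fold higher and 1 was lower. That was Leprel4, now called P3h4, a partner of lysyl hydroxylation complexes in the endoplasmic reticulum, at 11.2 RPM in the knockout-labelled library and 26.2 RPM in the wildtype library. P4ha2, a catalytic subunit of collagen prolyl 4-hydroxylase, had a ratio of 1.49 (1.21 to 1.83). Among 12 genes of collagen folding and export, 1 was higher and 1 lower. Tmem38b, a cation channel of the endoplasmic reticulum that is mutated in a human brittle bone disease, was at 212 RPM in the knockout-labelled library and 75.5 RPM in the wildtype library. Fkbp10, a collagen chaperone that is needed for telopeptide lysine hydroxylation, was at 8.09 RPM in the knockout-labelled library and 17.4 RPM in the wildtype library. Leprel4 and Fkbp10, both linked to lysyl hydroxylation, thus had ratios of 0.427 and 0.466, below that of Plod2. Of the 4 measured genes for removal of procollagen propeptides none was 2-fold apart. Adamts2, which cuts the amino-terminal propeptide, had a ratio of 1.88 (1.43 to 2.50), and Pcolce2, an enhancer of carboxy-terminal cleavage, had 1.57 (1.35 to 1.82).

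On the turnover side, Mmp15 was the 1 gene of 5 measured other metalloproteinases past the rule, and it was lower. It encodes another membrane-anchored enzyme, a close relative of the product of Mmp14, and was at 23.9 RPM in the knockout-labelled library and 64.4 RPM in the wildtype library, a ratio of 0.371 (0.315 to 0.436). Mmp19, a secreted enzyme, had a ratio of 0.693 on 34 reads in the knockout-labelled library and 47 in the wildtype library. The 7 measured metalloproteinases together, Mmp2 and Mmp14 included, had 1393 reads in the knockout-labelled library and 1352 in the wildtype library, a ratio of RPM of 0.988 (0.916 to 1.07). Mmp14 made up 27.1% of these reads in the knockout-labelled library (24.7 to 29.5) and 13.5% in the wildtype library (11.7 to 15.4). Mmp15 made up 15.1% in the knockout-labelled library (13.2 to 17.1) and 40.1% in the wildtype library (37.5 to 42.8). As with the lysyl oxidases, the order of the leading genes differed, here with the family's sum alike in the libraries.

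Among 10 measured genes that restrain or activate metalloproteinases, Reck, a membrane-anchored inhibitor, was lower at 1.94 RPM (17 reads) in the knockout-labelled library and 5.47 RPM (46 reads) in the wildtype library. Of 9 measured ADAMTS and ADAM genes, Adamts1, a proteinase of matrix proteoglycans that TIMP3 can inhibit, was higher at 30.4 RPM in the knockout-labelled library and 13.6 RPM in the wildtype library, and Adam19 was lower with a ratio of 0.463 (0.388 to 0.550). The call of Adamts1 was lost under each rescaling, at log2 ratios of 0.998, 0.995 and 0.92. With the reduced total Adam17 was called lower as well as Adam19. Of 7 measured genes of collagen uptake and lysosomal breakdown, 1 was at least 2-fold higher, Ctsl, which encodes the lysosomal proteinase cathepsin L, at 776 RPM in the knockout-labelled library and 226 RPM in the wildtype library. Ctss, another lysosomal proteinase and a macrophage gene, had a ratio of 1.96 (1.35 to 2.88).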

How the data were processed

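The data are 2 libraries of left ventricular polyadenylated RNA, 1 for each genotype label. Per the submitters' processing notes, STAR was used with mm10 and GRCm38. How reads were counted, with which annotation, and how multiply mapped reads and strand were handled is information not given in the sources used here. Read counts per gene were deposited by the authors without normalization, with the authors' RPM values, which are counts divided by the library total over all listed genes, times 1000000. The authors' deposited fold (ratio) and p-value columns have no stated method and were not used. Since no spread between animals exists, a rule of size over the whole table replaced a test: a minimum of 5 RPM in the higher library and a 2-fold difference with a pseudocount of 1 RPM, which understates differences of low genes. RPM ratios carry exact conditional binomial (Clopper-Pearson) 95% intervals, shares exact binomial ones, and ratios of ratios exact conditional ones. Lengths and overlaps came from GENCODE M21 (GRCm38). Deposited starts count from 0 and are given plus 1. Older gene symbols were matched through RefSeq synonyms. The members and gene lists were chosen with earlier results of these data known, so no list is independent support. Genes named were Lamp2, the 10 members and, of each list, up to 4 genes past the rule (at least 2 measured genes in any case, save 1 gene that is not reported here), plus Col1a1, Col1a2, Col3a1 and Eln; Pdgfra, Tcf21, Ddr2, Des, Loxl4, Timp1, Col4a1, Col4a2, Col5a1, Fmod, marker genes and overlapping rows were named after their values were seen. The alternatives were other pseudocounts, minimums and folds and 3 rescalings; gene length and the adding of overlapping rows were varied after seeing the data. The script was tested on simulated counts. Calculations used scipy 1.17.1, pandas 2.3.3 and numpy 2.4.6 under Python 3.11.15.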

Additional observations from a re-analysis of the deposited data

How the results depend on the processing

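Lox and Timp3 were the members called higher under all 10 alternatives, with Mmp14 added at 1.5-fold, and no member was called lower except at 1.5-fold, where 2 were (Loxl1 and Loxl2). Over all measured genes the counts higher and lower were 194 and 75 with a pseudocount of 5 RPM, 220 and 92 with a minimum of 20 RPM, 1307 and 745 at 1.5-fold, 87 and 46 at 3-fold and 209 and 375 with the reduced total. The lower count was 397 with a minimum of 1 RPM and with no filter. Some list medians changed sign. Under the rescalings collagen folding and export, at 0.04, stood at −0.07 to −0.14, the other lysyl oxidase and hydroxylase genes, at 0.04, at −0.06 to −0.13, and the ADAMTS and ADAM list, at 0.10, at −0.01 to −0.09. With a minimum of 1 RPM the ADAMTS and ADAM list stood at −0.14 and the other metalloproteinases, at −0.31, at 0.14. With no filter the propeptide and ADAMTS lists stood at −0.01 and −0.02, and the other metalloproteinases and the list of their regulators at 0. Depth limits Loxl2 most, since its ratio rests on 50 reads in the knockout-labelled library and 83 in the wildtype library. No paired analysis was possible because each group holds 1 library.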

Other observations

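Lists of neighbouring pathways that regulate these enzymes were also described. Lox and Plod2 are known to be induced under the hypoxia factor HIF-1. Of 17 measured textbook targets of HIF-1, 3 were at least 2-fold higher, 0 lower and 14 passed neither way. Over all measured genes 3.35% were higher and 2.37% lower. The median log2 ratio of the 17 was 0.30, against 0.11 over all measured genes. In this list 11 lay above 0 and 6 below, from −0.39 to 1.52. Adm, which encodes the vasodilator adrenomedullin, was at 14.5 RPM in the knockout-labelled library and 4.40 RPM in the wildtype library. Slc2a1, a glucose transporter gene, had a ratio of 2.95 (2.46 to 3.56). Ndrg1 had a ratio of 2.09 (1.86 to 2.36), and its call was lost under each rescaling. Plod2 itself was at 14.6 RPM in the knockout-labelled library and 19.9 RPM in the wildtype library. The ratio of Plod2 thus lay below 1 and that of Lox above 1. The part of HIF-1 in the ratios of Lox and Plod2 was not tested.

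The TGF-beta pathway is known to drive matrix genes in fibroblasts. Its part in the ratios of the enzyme and inhibitor genes was not tested. Of 16 measured genes of the pathway, 1 was at least 2-fold higher, 0 were lower and 15 passed neither way. Over all measured genes 3.35% were higher and 2.37% lower. The median log2 ratio of the 16 was 0.23, against 0.11 over all measured genes. In this list 9 lay above 0 and 7 below, from −0.75 to 1.24. The gene past the rule was Ctgf, a matricellular gene, at 2070 RPM in the knockout-labelled library and 874 RPM in the wildtype library. Tgfbr2, which encodes a receptor of the pathway, had a ratio of 2.0 (1.81 to 2.22) and a log2 ratio of 0.99 with the pseudocount, just under the rule.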
